A study of Mus musculus with 14 samples.

Results

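The genes described here encode the translation initiation factors (eIFs) of mouse embryonic fibroblasts (MEFs) with and without the lysine acetyltransferase Tip60. They were taken by gene symbol alone: Eif1, Eif2b, Eif3, Eif4a, Eif4b, Eif4e, Eif4g, Eif4h, Eif5 and Eif6 genes, plus Eif2s2 and Eif2s3x, without the Eif4ebp genes and the Y-linked Eif2s3y. This gave 46 of 26270 gene identifiers, 1 of them the pseudogene Eif1-ps3. Eif2s1, the gene of the alpha subunit of eIF2, is not among them. Of the 46, 44 passed the filter on low counts. Eif1-ps3 and Eif4e1b, an oocyte form of the cap-binding protein, did not pass it and had at most 0.163 and 0 CPM (counts scaled to a common library size).

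RNA-seq was run on 14 libraries of MEFs from E13.5 embryos that were kept in 3% O2. The groups were Tip60 knockout (KO, Tip60-/-) at day 5 (n = 4), control (Tip60+/+) at day 5 (n = 4), KO at day 3 (n = 3) and control at day 3 (n = 3). The day counts from treatment with 250 nM 4-hydroxytamoxifen (4-OHT), a drug that activates tamoxifen-dependent Cre. One treatment text covers all samples, so that treatment of the controls is not stated apart, and no Cre line is named. Tip60 is encoded by Kat5, whose mRNA was 17.3, 17.8, 19.9 and 18.7 CPM in KO against 30.9, 29.8, 32.1 and 30.9 CPM in control at day 5, and 21.1, 20.2 and 18.3 CPM in KO against 31.5, 32.3 and 32 CPM in control at day 3. Every KO library was below every control library of its day, and Kat5 was at 59.6% of control at day 5 and 62.3% at day 3. Which exons are deleted is not given, and the count covers the whole gene.

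Eukaryotic initiation begins when eIF2, loaded with GTP and the initiator tRNA, joins the small ribosomal subunit together with eIF1, eIF1A, eIF3 and eIF5. The eIF4 factors bind the cap of the mRNA and unwind its leader, the complex scans to a start codon under the control of eIF1 and eIF1A, and eIF5 and eIF5B then release eIF2 and join the large subunit. eIF2B recharges eIF2 with GTP, a step that is blocked when stress kinases phosphorylate eIF2. Growing cells express most of these genes at high levels, and several factors are encoded by a pair of related genes.

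Library totals ran between 2187168 counts (KO day 3, replicate 3) and 39203154 counts (KO day 3, replicate 2). The summed level of 12 fibroblast markers was 31658 to 36684 CPM in KO and 32462 to 48857 CPM in control at day 5, and 45794 to 56221 CPM in KO and 31237 to 36384 CPM in control at day 3. Of 7 KO libraries 5 were male, and of 7 control libraries 1 was (day 5, replicate 4). The labels give litter 1 for KO day 5 replicate 1 and for all controls but day 5 replicate 4. Litter 2 is given for that control and for KO replicate 2 of both days, and litter 3 for KO replicates 3 and 4. Yet the embryo identifiers of KO and control libraries have no leading number in common. No label says whether an equal litter number in KO and control means a shared litter, so that genotype and litter cannot be told apart. Replicates 1 and 2 of the day 3 control carry the same embryo identifier, and the labels name no separate cultures, so p-values measure the spread between these libraries, which may in part be technical. In bulk RNA a smaller number of cells of one type and less of a transcript per cell cannot be told apart.

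Most initiation factor genes were lower in Tip60 KO cells. At day 5, 33 of 44 (75%) were called lower in KO and 2 higher (Eif1b and Eif4a2), where among all 14327 genes tested 26.2% were lower and 26.3% higher. At day 3, 30 of 44 (68.2%) were called lower and 0 higher, against 26.2% lower and 24.6% higher among all genes. With the 2 day 3 control libraries of 1 embryo summed, 27 were called lower at day 3, without Eif3b, Eif4g1 and Eif4h. Calls were made at an adjusted p below 0.05 in edgeR's quasi-likelihood test; DESeq2 called 34 lower and 2 higher at day 5 and 30 lower and 0 higher at day 3, and at an unadjusted p below 0.05 edgeR also had 0 higher at day 3. The shifts were moderate. The median log2 fold change (KO over control) of the 44 genes was -0.38 at day 5 and -0.39 at day 3, where that of all genes was 0.02 and -0.0036. Against a fold of 1.5, glmTreat called 4 members lower at day 5 (Eif1ax, Eif3c, Eif4b and Eif5a; 4.55% of all genes lower, 7.38% higher) and 6 at day 3 (Eif1, Eif1ax, Eif2s2, Eif3c, Eif4a1 and Eif4b; 6.33% of all genes lower, 9.58% higher), with 0 higher at either day.

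Calls at the separate days fell on largely shared genes. Of the 44, 28 were called lower at both days, as were 2473 of all genes (17.3%). Eif2b4, Eif2b5, Eif2s3x, Eif3e and Eif4a3 were called lower at day 5 alone, and Eif1 and Eif1ad at day 3 alone. Eif1b, Eif2b1, Eif3m, Eif4a2, Eif4a3l1, Eif4e3, Eif4g2, Eif4g3 and Eif5a2 were called lower at neither day. At day 5, 32 members had every KO library below every control library and 2 had every KO library above (23.8% and 23.5% of all genes). At day 3 the same counts were 32 and 2 (29.6% and 28.2% of all genes).

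**Figure D1:**
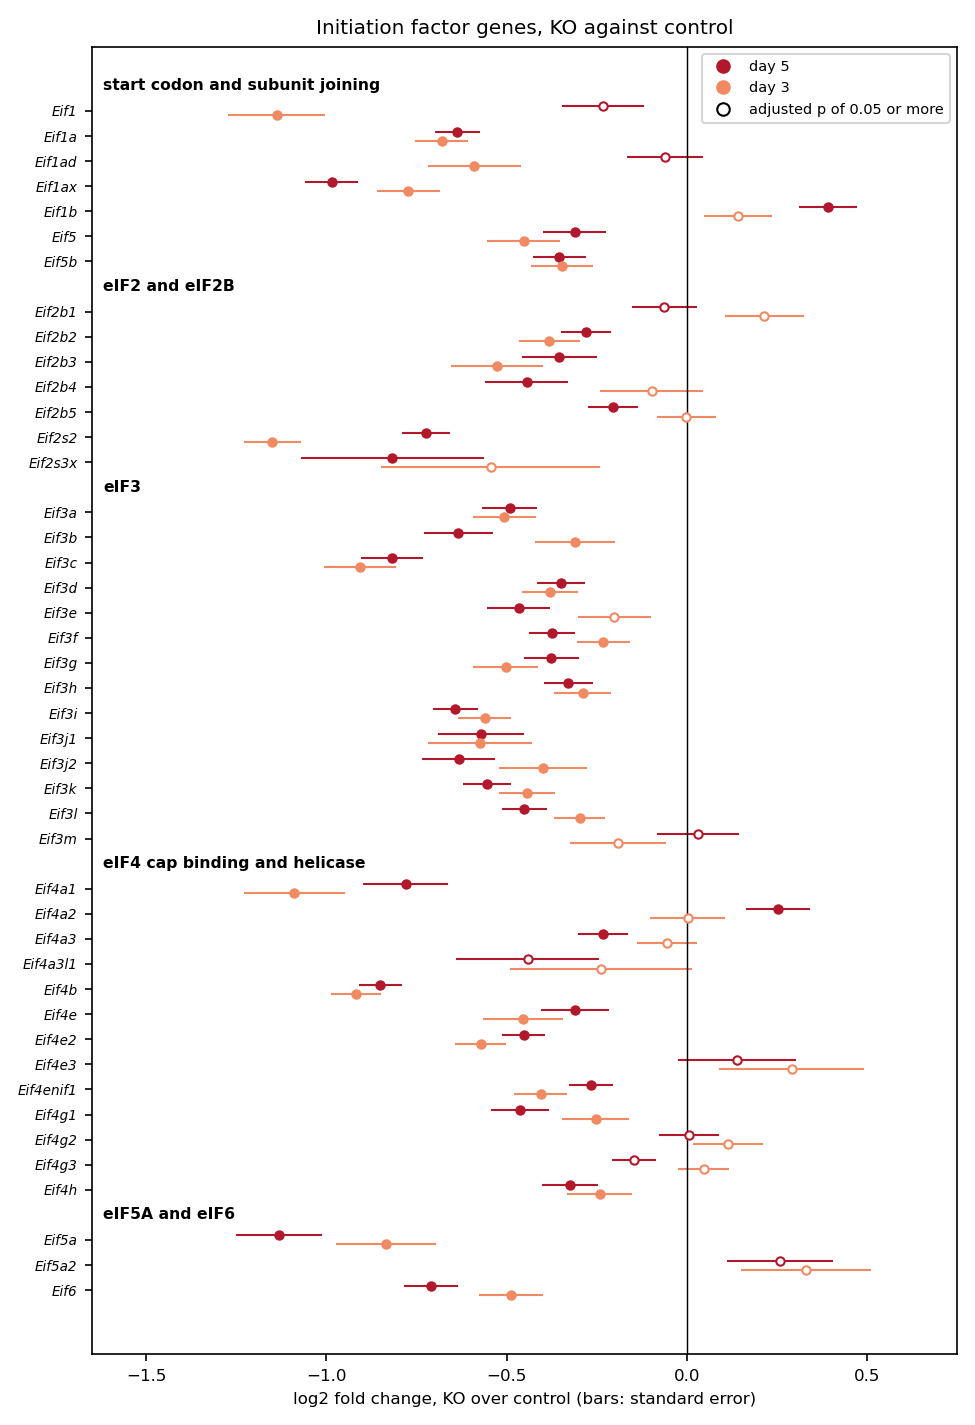
Log2 fold change (KO over control) of the 44 tested initiation factor genes at day 5 (dark) and day 3 (light), by role, with the standard error of the fit as bars. Filled points had an adjusted p below 0.05. Points lie left of 0 for 38 genes at day 5 and 37 at day 3, and Eif1b and Eif4a2 are the filled points to the right.

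Summed per gene length, as TPM (counts divided by gene length and scaled to a common total), the 46 genes held 7480 ± 148 TPM in KO and 9496 ± 595 TPM in control at day 5 (SD, n = 4 each), and 8094 ± 413 TPM in KO and 10367 ± 87.4 TPM in control at day 3 (SD, n = 3 libraries each, those of control from 2 embryos). This was 0.735% to 0.765% of the messenger total in KO and 0.861% to 0.983% in control libraries at day 5, and 0.767% to 0.85% in KO and 1.03% to 1.04% in control at day 3. KO and control libraries did not overlap in this sum at either day. The sum of the eIF3 genes was 3146 ± 84 TPM in KO and 4088 ± 205 TPM in control at day 5, and that of eIF5A and eIF6 was 518 ± 11 TPM in KO and 980 ± 144 TPM in control. The eIF4 genes differed less, with 2438 ± 64.2 TPM in KO and 2724 ± 164 TPM in control at day 5, where the lowest control library (2486 TPM, replicate 4) lay below the highest KO library (2498 TPM). For the genes taken of eIF2 and eIF2B the sums at day 5 were 298 to 322 TPM in KO and 323 to 402 TPM in control.

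**Figure D2:**
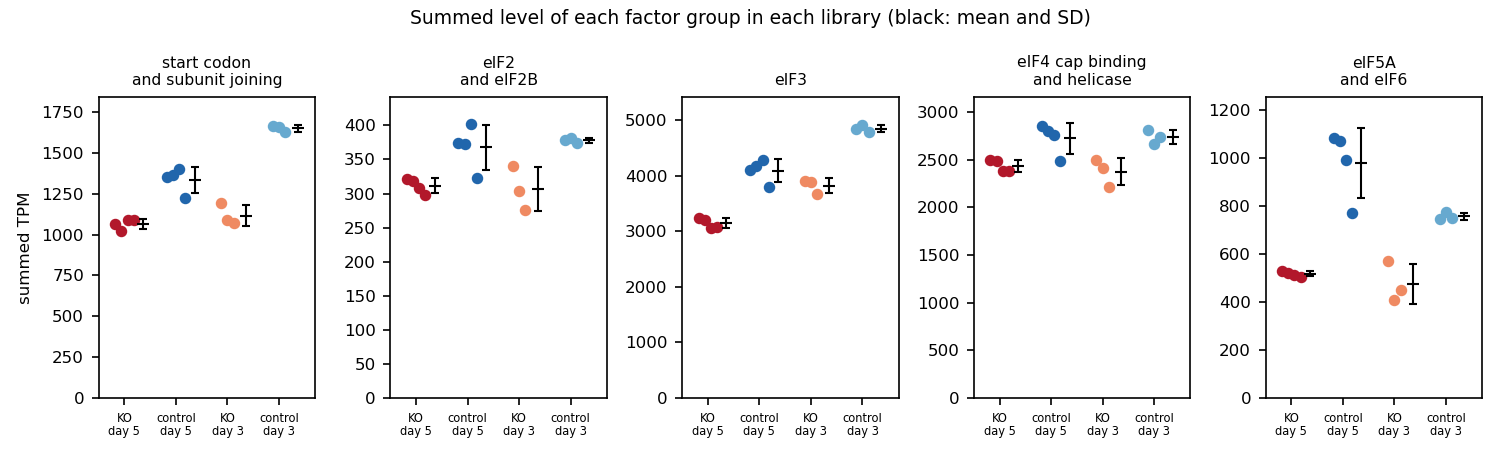
Summed TPM of the members of each role in each library (points), with the mean and SD of the group in black; each vertical axis starts at 0. At both days the KO points of eIF3, of the start codon group and of eIF5A with eIF6 lie below all control points of the same day, while in the eIF4 group KO and control points touch at day 5.

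The factors that select the start codon and join the subunits were lower in KO, with Eif1b as the exception. Of 7 genes, 4 (57.1%) were called lower and 1 (14.3%) higher at day 5, beside 26.2% and 26.3% of all genes. At day 3, 6 (85.7%) were called lower and 0 higher, beside 26.2% and 24.6% of all genes. Eif1ax and Eif1a encode eIF1A, which helps the scanning complex to recognise the start codon. Eif1ax, on the X chromosome, had 58.8, 52.2, 60.1 and 64.4 CPM in KO against 115, 124, 121 and 107 CPM in control at day 5, and 57.8, 52.6 and 61.9 CPM in KO against 101, 95.4 and 101 CPM in control at day 3. KO libraries of each day lay well below all controls. The log2 fold change was -0.99 ± 0.074 (SE) at day 5 (adjusted p = 2.28e-07) and -0.77 ± 0.087 at day 3 (adjusted p = 8.37e-06), or 50.5% and 58.5% of control.

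Eif1a, the autosomal copy, had 179, 168, 175 and 178 CPM in KO against 263, 259, 275 and 292 CPM in control at day 5. At day 3 it had 205, 190 and 185 CPM in KO against 332, 297 and 300 CPM in control. No KO library reached a control library at either day, and Eif1a was at 64.3% of control at day 5 (adjusted p = 2.41e-06) and 62.4% at day 3 (adjusted p = 5.93e-06). Both copies were thus lower in KO; their products are near-identical and the counting may have shared reads between them. Per length, Eif1a over Eif1ax was 0.961 ± 0.0611 in KO and 0.755 ± 0.0858 in control at day 5, without overlap, and 1.09 ± 0.109 in KO and 1.01 ± 0.0488 in control at day 3, with overlap.

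Eif1 encodes eIF1, the factor that rejects poor start codons, and its mRNA had the largest difference between the days. It had 78.5, 76.3, 107 and 102 CPM in KO against 114, 109, 106 and 99.8 CPM in control at day 5, and 101, 85.5 and 99.1 CPM in KO against 187, 244 and 203 CPM in control at day 3. The groups overlapped at day 5 and were far apart at day 3, where the controls alone were high. The log2 fold change was -0.23 ± 0.11 at day 5 (adjusted p = 0.101) and -1.14 ± 0.14 at day 3 (adjusted p = 1.27e-05). Without KO day 5 replicate 3 the day 5 value passed the threshold (-0.32, adjusted p = 0.0335).

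Eif1b, the second eIF1 gene, went the other way. It had 36, 33.2, 38 and 38.3 CPM in KO against 24.3, 29.8, 29.5 and 27.6 CPM in control at day 5, and 45, 45.1 and 43.3 CPM in KO against 42.6, 41.4 and 36.8 CPM in control at day 3. Every KO library was above every control library at both days, by a clear margin at day 5 and narrowly at day 3. Eif1b was higher in KO at day 5 (log2 fold change 0.39 ± 0.08, adjusted p = 9.58e-04) and did not pass at day 3 (0.14 ± 0.094, adjusted p = 0.221). Per length, Eif1b over Eif1 was 0.607, 0.575, 0.467 and 0.498 in KO against 0.282, 0.363, 0.369 and 0.366 in control at day 5, and 0.59, 0.698 and 0.577 in KO against 0.302, 0.225 and 0.24 in control at day 3. The ratio was 1.55 times as high in KO as in control at day 5 and 2.43 times as high at day 3, and no KO library overlapped a control library.

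The promoters of this pair are shown because the ratio of Eif1b over Eif1 was higher in KO at both days, while their products are close relatives. On neither day were both genes called. Each window is the 250 bases before the RefSeq start of the gene (build GRCm38.p6, the same assembly as mm10), on the gene's strand, and capitals mark matches on either strand to CACGTG (an E-box), GGGCGG (a GC box), CCGGAAG (an ETS core), TATAAA or TGATGCAA (the core of an ATF4 site). Eif1 is at chr11:100319699-100319948 on the plus strand and Eif1b at chr9:120492356-120492605 on the plus strand.
Eif1: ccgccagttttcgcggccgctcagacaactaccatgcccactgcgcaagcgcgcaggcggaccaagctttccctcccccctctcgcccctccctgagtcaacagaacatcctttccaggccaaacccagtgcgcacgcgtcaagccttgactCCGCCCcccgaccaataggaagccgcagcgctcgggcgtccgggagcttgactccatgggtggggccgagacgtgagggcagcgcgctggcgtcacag
Eif1b: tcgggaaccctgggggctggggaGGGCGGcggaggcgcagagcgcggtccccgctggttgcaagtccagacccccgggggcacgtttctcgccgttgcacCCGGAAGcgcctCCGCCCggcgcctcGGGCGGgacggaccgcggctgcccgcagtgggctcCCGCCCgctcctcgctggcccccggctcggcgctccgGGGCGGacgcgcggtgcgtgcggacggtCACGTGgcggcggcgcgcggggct
The Eif1 window held 1 GC box, and the Eif1b window 5 GC boxes, 1 E-box and 1 ETS core. In the 50 bases after the start, which are not shown, Eif1 had more GC boxes (first bases at 1, 28 and 36). Eif1b had none of these motifs there. None of the marked matches overlapped another. A match only describes these letters and is not a measured site.

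The 3 further genes of this role were lower or unclear. Eif5, which makes eIF2 hydrolyse its GTP, was called lower at both days, with 407, 387, 380 and 372 CPM in KO against 484, 506, 520 and 410 CPM in control at day 5 and 534, 477 and 442 CPM in KO against 714, 618 and 656 CPM in control at day 3. Eif5b, the GTPase of subunit joining, was at 78.3% of control at day 5 (adjusted p = 0.00105) and 78.7% at day 3 (adjusted p = 0.00386). Eif1ad, which encodes a protein with an eIF1A-like domain, had 19.2, 20.7, 21.9 and 21 CPM in KO against 21.3, 23.7, 24.1 and 17.5 CPM in control at day 5, and 17.9, 12.7 and 16.6 CPM in KO against 24.3, 24.6 and 25.2 CPM in control at day 3. Its groups overlapped at day 5, where the lowest library was a control, and were apart at day 3 (log2 fold change -0.59 ± 0.13, adjusted p = 0.00179).

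**Figure D3:**
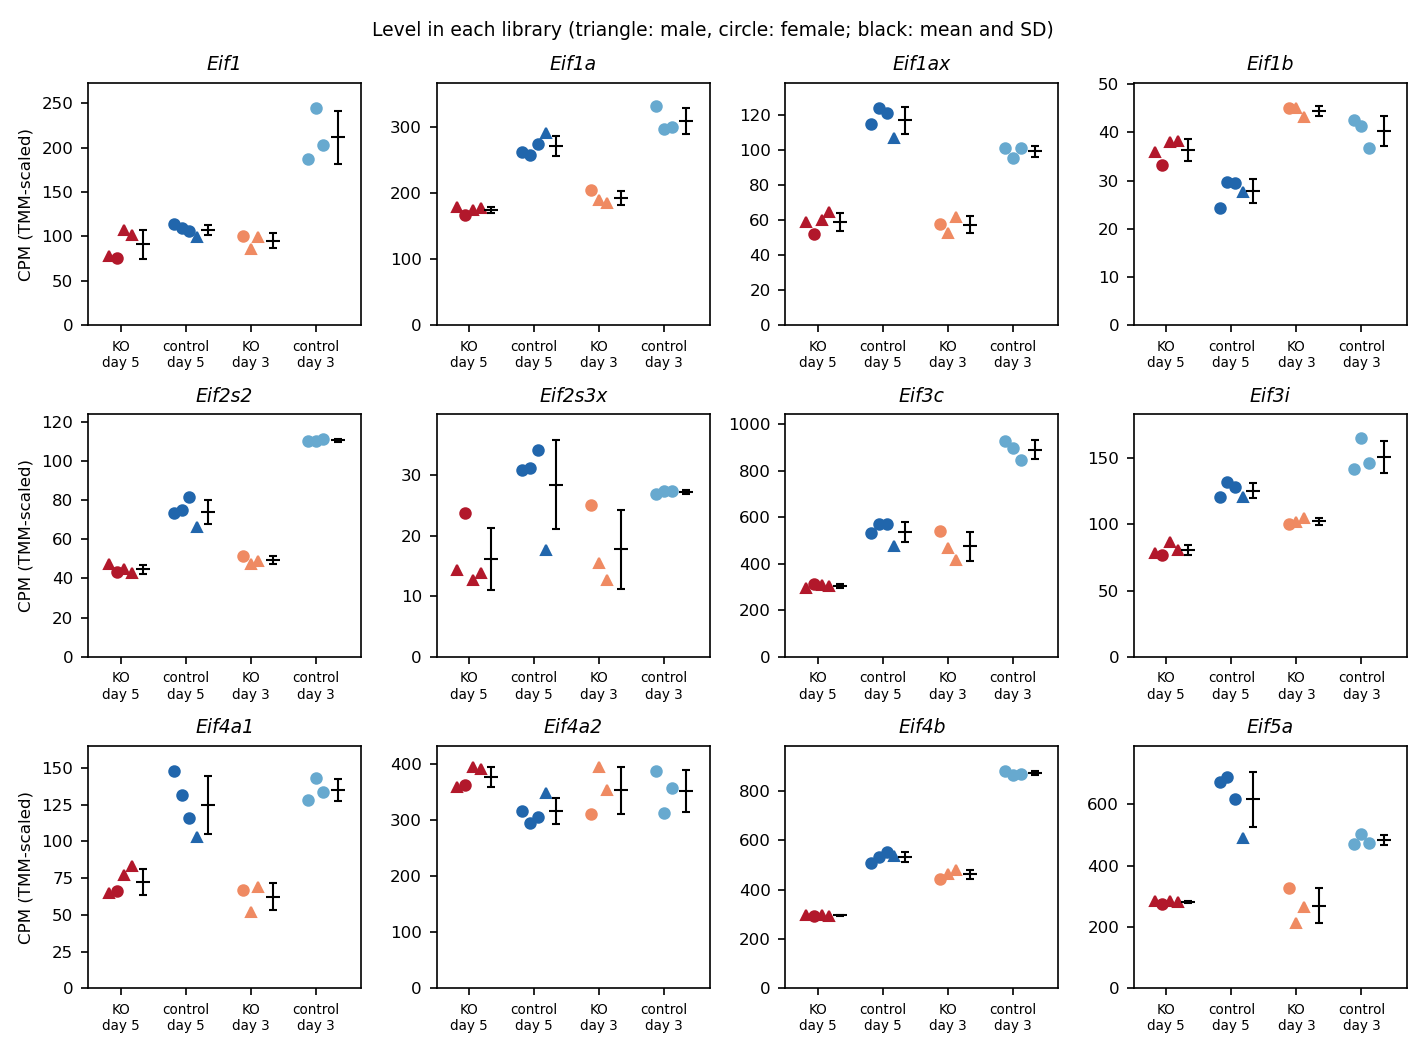
CPM of 12 initiation factor genes in each library (triangles male, circles female), with the mean and SD of each group in black and every axis starting at 0. KO points lie below all control points of the same day for Eif1a, Eif1ax, Eif2s2, Eif3c, Eif3i, Eif4a1, Eif4b and Eif5a, and above them for Eif1b; Eif2s3x separates by sex as well as by genotype.

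The 7 genes taken for eIF2 and its exchange factor eIF2B leave out the alpha subunit of eIF2. Of the 7, 6 (85.7%) were called lower at day 5 and 3 (42.9%) at day 3. Of all genes 26.2% were called lower at each day. Eif2s2 encodes the beta subunit of eIF2 and had the smallest adjusted p of these genes at both days. It had 47.5, 43.1, 45 and 42.8 CPM in KO against 73.3, 74.7, 81.3 and 66 CPM in control at day 5, and 51.6, 47.4 and 48.8 CPM in KO against 110, 110 and 111 CPM in control at day 3. The KO libraries of both days lay close together, and the day 3 controls were higher than the day 5 controls. The log2 fold change was -0.72 ± 0.066 at day 5 (adjusted p = 1.19e-06) and -1.15 ± 0.079 at day 3 (adjusted p = 1.27e-07).

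Eif2s3x encodes the gamma subunit from the X chromosome, and its level followed sex as well as genotype. At day 5 it had 14.3, 23.8, 12.6 and 13.9 CPM in KO against 30.8, 31.2, 34.1 and 17.6 CPM in control, and at day 3 25.1, 15.5 and 12.7 CPM in KO against 26.8, 27.4 and 27.3 CPM in control. The KO libraries with 23.8 and 25.1 CPM were the 2 female ones and the control library with 17.6 CPM the male one, so that KO lay below control within each sex wherever both groups had libraries of that sex. Over all libraries it was called lower at day 5 (log2 fold change -0.82 ± 0.25, adjusted p = 0.0162) and not at day 3 (-0.54 ± 0.30, adjusted p = 0.152; without the female KO library, which leaves male KO against female control libraries, the call passed, adjusted p = 0.0268).

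Among the subunits of eIF2B, Eif2b2 and Eif2b3 were lower at both days. Eif2b2, of the regulatory part, had 33.8, 32.2, 35.7 and 34.2 CPM in KO against 42.1, 41.5, 41.9 and 39.6 CPM in control at day 5, and 38.6, 36.2 and 32.4 CPM in KO against 42.9, 49.3 and 47.6 CPM in control at day 3, with no overlap. Eif2b3, of the catalytic part, had 18.5, 19.5, 21.4 and 21 CPM in KO against 26.5, 27.5, 25.9 and 22.9 CPM in control at day 5, and 20.7, 20.2 and 16.5 CPM in KO against 32.1, 26.7 and 23.9 CPM in control at day 3. Both genes had all KO libraries below all controls, at 82.4% and 78.2% of control at day 5 (adjusted p = 0.00407 and 0.0106). Eif2b4 had 13.8, 13.4, 14.8 and 15.3 CPM in KO against 17.5, 18.6, 21.3 and 21 CPM in control at day 5 (log2 fold change -0.44 ± 0.12, adjusted p = 0.00519), and 15.9, 9.39 and 14.1 CPM in KO against 15, 15.7 and 14.2 CPM in control at day 3, where the groups overlapped (-0.10 ± 0.14, adjusted p = 0.819).

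Eif2b5, the catalytic subunit, was at 86.7% of control at day 5 (adjusted p = 0.0222) and 99.9% at day 3 (adjusted p = 0.995). The day 5 call was lost in a fit with sex (adjusted p = 0.103), with totals as the scaling (adjusted p = 0.155), and without KO replicate 3, KO replicate 4 or control replicate 3 (adjusted p = 0.0533 to 0.0732). Eif2b1, the alpha subunit, passed at neither day, with 35.1 ± 2.67 CPM in KO and 36.7 ± 3.87 CPM in control at day 5 and 32.1 ± 3.06 CPM in KO and 28.2 ± 1.85 CPM in control at day 3.

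Nearly all eIF3 genes were lower in KO. eIF3 is the large scaffold that binds the small subunit and links it to the mRNA through eIF4G. Of its 14 genes, 13 (92.9%) were called lower at day 5 and 12 (85.7%) at day 3, beside 26.2% of all genes at each day. In edgeR and in DESeq2, 0 were called higher at either day, beside 26.3% and 24.6% of all genes in edgeR. The log2 fold changes ran between -0.82 (Eif3c) and 0.03 (Eif3m) at day 5 and between -0.91 (Eif3c) and -0.19 (Eif3m) at day 3. At both days 13 of the 14 had every KO library below every control library, as had 23.8% of all genes at day 5 and 29.6% at day 3.

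Eif3c, a core subunit that in yeast contacts eIF1 and eIF5, had 295, 312, 309 and 305 CPM in KO against 532, 570, 570 and 479 CPM in control at day 5, and 541, 470 and 416 CPM in KO against 931, 897 and 848 CPM in control at day 3. Its KO libraries were far below all controls of the same day, at 56.7% of control at day 5 (log2 fold change -0.82 ± 0.086, adjusted p = 3.78e-06) and 53.3% at day 3 (-0.91 ± 0.10, adjusted p = 6.58e-06). Eif3i, a subunit with WD repeats, had 78.6, 77.1, 86.4 and 80.4 CPM in KO against 121, 132, 128 and 121 CPM in control at day 5, and 100, 102 and 105 CPM in KO against 142, 165 and 146 CPM in control at day 3. The spread among KO libraries was small beside the distance to control, and Eif3i was at 64.1% of control at day 5 (adjusted p = 2e-06) and 67.8% at day 3 (adjusted p = 2.81e-05).

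Eif3a, the largest subunit, had 541, 555, 526 and 519 CPM in KO against 770, 776, 767 and 698 CPM in control at day 5, and 634, 650 and 562 CPM in KO against 952, 818 and 849 CPM in control at day 3. Eif3k, a peripheral subunit, had 82.2, 73.2, 77.5 and 79.2 CPM in KO against 112, 117, 118 and 112 CPM in control at day 5, and 96.1, 103 and 112 CPM in KO against 130, 153 and 139 CPM in control at day 3. Both were apart at both days, with log2 fold changes of -0.49 ± 0.075 and -0.56 ± 0.067 at day 5 (adjusted p = 1e-04 and 1.22e-05). Eif3b, the RNA-binding core subunit, had 251, 252, 232 and 227 CPM in KO against 391, 406, 386 and 307 CPM in control at day 5 (-0.63 ± 0.096, adjusted p = 8.71e-05). At day 3 it had 274, 233 and 214 CPM in KO against 318, 295 and 284 CPM in control, with a small gap between the groups (-0.31 ± 0.11, adjusted p = 0.0303). That call was lost in a fit with sex (-0.16, adjusted p = 0.172) and without KO replicate 3, KO replicate 4, control replicate 1 or control replicate 2 of day 3 (adjusted p = 0.0557 to 0.14), and with control replicates 1 and 2 summed (adjusted p = 0.0686).

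The other 8 eIF3 genes called lower at day 5 were Eif3d, Eif3e, Eif3f, Eif3g, Eif3h, Eif3j1, Eif3j2 and Eif3l, at 64.5% (Eif3j2) to 79.6% (Eif3h) of control. All of them but Eif3e were also called at day 3, where Eif3e was at 87% of control (adjusted p = 0.113) with its KO libraries still all below the controls. In a fit with sex Eif3e was called too (-0.35, adjusted p = 0.00454). The day 3 call on Eif3j2 (adjusted p = 0.014) was lost in a fit with sex (-0.28, adjusted p = 0.0585), without KO replicate 4 (-0.25, adjusted p = 0.0884) and without control replicate 1 (-0.31, adjusted p = 0.0653). That on Eif3f (adjusted p = 0.0173) was lost with sex (adjusted p = 0.0516), without KO replicate 4 (0.0789) or control replicate 2 (0.0684), and in a fit of the 2 day 3 groups alone (0.117), as was that on Eif3h there (0.0645). Eif3j1 and Eif3j2 are near-identical copies and may share reads. Eif3m, a subunit of the same ring as Eif3e, Eif3f and Eif3h, was the exception. It had 46.5, 41.1, 55.7 and 57.1 CPM in KO against 51, 47.5, 49.5 and 48.1 CPM in control at day 5, with the KO libraries on both sides of the controls, and passed at neither day (adjusted p = 0.836 and 0.248).

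Since the eIF3 subunits changed by different amounts, their order by level per length was not the same in KO and control. Eif3f had the highest mean in KO at day 5 (441 ± 32.7 TPM), followed by Eif3c (309 ± 11.3 TPM) and Eif3a (302 ± 17.3 TPM), which did not differ beyond their spread. In control cells at day 5 Eif3f (527 ± 22.8 TPM) and Eif3c (504 ± 48.4 TPM) were alike within their spread. At day 3 Eif3c stood at 458 ± 67.2 TPM in KO and 807 ± 34.3 TPM in control and Eif3f at 652 ± 43.1 TPM in KO and 719 ± 30.1 TPM in control, so that Eif3f led in KO and Eif3c in control. Eif3j1 was the lowest in all 4 groups, with 17.2 ± 2.53 TPM in KO and 23.7 ± 2.79 TPM in control at day 5.

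The eIF4 factors divided by gene. The helicase Eif4a1, its stimulator Eif4b and the cap-binding genes Eif4e and Eif4e2 were lower in KO. Eif4a2, Eif4a3l1, Eif4e3, Eif4g2 and Eif4g3 were called lower at neither day. Of 13 tested genes, 8 (61.5%) were called lower and 1 (7.69%) higher at day 5, beside 26.2% and 26.3% of all genes. At day 3, 7 (53.8%) were called lower and 0 higher, beside 26.2% and 24.6% of all genes. Eif4b, which stimulates the helicase, had 297, 294, 296 and 293 CPM in KO against 508, 530, 553 and 535 CPM in control at day 5, and 441, 463 and 479 CPM in KO against 879, 865 and 869 CPM in control at day 3. The KO libraries of day 5 lay very close together, and no control came near them. The log2 fold change was -0.85 ± 0.059 at day 5 (adjusted p = 1.32e-07) and -0.92 ± 0.068 at day 3 (adjusted p = 2.41e-07).

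Eif4a1 and Eif4a2 encode the 2 forms of the helicase that unwinds the leader of the mRNA, and they differed in direction. Eif4a1 had 64.7, 66.1, 77 and 83.1 CPM in KO against 148, 132, 116 and 103 CPM in control at day 5, and 66.9, 51.7 and 68.9 CPM in KO against 128, 143 and 134 CPM in control at day 3. All KO libraries lay below all controls, at 58.3% of control at day 5 (log2 fold change -0.78 ± 0.12, adjusted p = 8.91e-05) and 47% at day 3 (-1.09 ± 0.14, adjusted p = 2.49e-05). Eif4a2 had 360, 364, 395 and 391 CPM in KO against 317, 296, 306 and 349 CPM in control at day 5, and 311, 395 and 355 CPM in KO against 388, 313 and 357 CPM in control at day 3. It was higher in KO at day 5, with a small gap between the groups (0.25 ± 0.088, adjusted p = 0.0262). At day 3 the groups lay over each other (0.00 ± 0.10, adjusted p = 0.989). The day 5 call on Eif4a2 was lost in a fit with sex (0.17, adjusted p = 0.105) and without KO replicate 3 or 4 or control replicate 1, 2 or 3 of day 5 (adjusted p = 0.0539 to 0.0798), which leaves Eif1b as the 1 member called higher.

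Per length, Eif4a2 over Eif4a1 was 3.29, 3.26, 3.04 and 2.79 in KO against 1.26, 1.33, 1.56 and 2.01 in control at day 5, and 2.76, 4.53 and 3.05 in KO against 1.8, 1.29 and 1.57 in control at day 3. The ratio was 2.01 times as high in KO as in control at day 5 and 2.22 times as high at day 3, and each KO library was above each control library. The control nearest to KO was day 5 replicate 4, and the highest ratio was in the shallowest library. Eif4a2 overlaps Rfc4 and 2 small nucleolar RNA genes in the annotation, and the 2 helicases are similar enough that reads may have been shared.

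Their promoters are shown in the same way, with the same 5 motifs in capitals. Eif4a1 is at chr11:69672424-69672673 on the minus strand and Eif4a2 at chr16:23107218-23107467 on the plus strand.
Eif4a1: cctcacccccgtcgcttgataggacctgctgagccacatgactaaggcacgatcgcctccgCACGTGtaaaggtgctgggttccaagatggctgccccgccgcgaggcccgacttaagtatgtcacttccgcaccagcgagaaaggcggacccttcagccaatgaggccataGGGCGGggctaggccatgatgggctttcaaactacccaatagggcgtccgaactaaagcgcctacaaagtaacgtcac
Eif4a2: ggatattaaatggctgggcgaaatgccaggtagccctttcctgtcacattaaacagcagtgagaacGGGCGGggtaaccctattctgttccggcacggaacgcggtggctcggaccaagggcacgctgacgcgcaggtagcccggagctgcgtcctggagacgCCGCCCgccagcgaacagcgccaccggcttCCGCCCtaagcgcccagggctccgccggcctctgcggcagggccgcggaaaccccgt
The Eif4a1 window held 1 E-box and 1 GC box, and the Eif4a2 window 3 GC boxes. In the 50 bases after the start, Eif4a2 had a further GC box (first base at 8) and Eif4a1 none of these motifs. Over the full windows of 300 bases (250 before to 50 after the start) that RefSeq gave for 35 members, the E-box was in 8 (22.9%), against 10.1% of 10994 promoters of tested genes and 7.24% of all 27025 promoters. The ETS core was in 12 of 35 (34.3%, against 17.4% and 9.12%), the GC box in 25 (71.4%, against 64.6% and 35.9%), TATAAA in 2 (5.71%, against 7.21% and 14.2%) and TGATGCAA in 0 (against 0.6% and 0.929%). Of the 28 members called lower at both days, 22 had a window. Of these, 6 held the E-box (27.3%), 7 the ETS core (31.8%), 15 the GC box (68.2%), 2 TATAAA (9.09%) and 0 TGATGCAA.

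Of the other paralog ratios, Eif4e3 over Eif4e was 0.157 ± 0.0239 in KO and 0.114 ± 0.00811 in control at day 5, with overlap, and 0.225 ± 0.0463 in KO and 0.127 ± 0.0189 in control at day 3, without. Eif4g3 over Eif4g1 was 0.208 ± 0.022 in KO and 0.167 ± 0.0166 in control at day 5, with overlap, and 0.233 ± 0.0171 in KO and 0.188 ± 0.00582 in control at day 3, without. The ratios of Eif4e2 over Eif4e and of Eif3j1 over Eif3j2 overlapped between KO and control at both days.

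**Figure D4:**
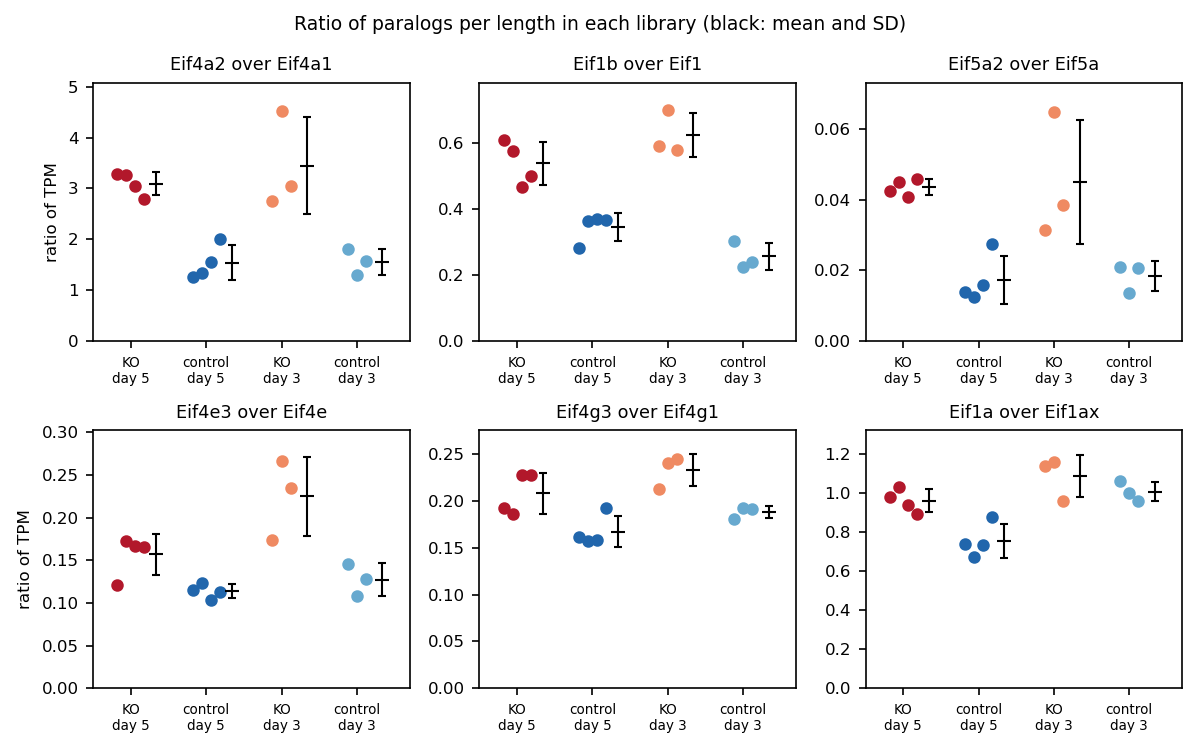
Ratio of the TPM of paralogous initiation factor genes in each library (points), with the mean and SD of the group in black and each axis starting at 0. KO points lie above all control points of the same day for Eif4a2 over Eif4a1, Eif1b over Eif1 and Eif5a2 over Eif5a; in the other panels this holds at day 3 for Eif4e3 over Eif4e and Eif4g3 over Eif4g1, and at day 5 for Eif1a over Eif1ax.

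The cap-binding genes were lower with 1 exception. Eif4e, the cap-binding protein, had 60.8, 64.1, 57.9 and 62.6 CPM in KO against 85.9, 78.6, 78.1 and 61.7 CPM in control at day 5, where control replicate 4 lay inside the KO range (log2 fold change -0.31 ± 0.094, adjusted p = 0.0123). In a fit with sex (adjusted p = 0.0677) or scaled to library totals (adjusted p = 0.06) this call was lost. Eif4e2, a cap-binding protein known as a repressor, had 78.2, 76.6, 78 and 76 CPM in KO against 105, 107, 100 and 110 CPM in control at day 5, and 78.1, 74.7 and 86.8 CPM in KO against 111, 124 and 122 CPM in control at day 3. Its groups were well apart at both days, at 73.1% of control at day 5 (adjusted p = 2.72e-05) and 67.3% at day 3 (adjusted p = 1.74e-05). Eif4e3 passed at neither day, with 8.4 ± 1.4 CPM in KO and 7.54 ± 1.19 CPM in control at day 5, and Eif4enif1, which carries eIF4E to the nucleus, was at 83.1% and 75.5% of control at day 5 and day 3.

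The scaffold genes did not move together. Eif4g1, the main scaffold, had 824, 816, 768 and 732 CPM in KO against 1127, 1146, 1052 and 1003 CPM in control at day 5 (log2 fold change -0.46 ± 0.08, adjusted p = 2.63e-04). At day 3 it had 812, 714 and 674 CPM in KO against 903, 866 and 855 CPM in control (-0.25 ± 0.092, adjusted p = 0.0331). Eif4g2, a scaffold that does not bind eIF4E, had 1726 ± 61.4 CPM in KO and 1718 ± 92.7 CPM in control at day 5 and 1790 ± 166 CPM in KO and 1653 ± 108 CPM in control at day 3, and its groups overlapped at both. In KO at day 5 it was the member with the highest level per length, at 650 ± 38.5 TPM, where control cells had 597 ± 43.5 TPM. Eif4g3 had 185, 177, 203 and 194 CPM in KO against 212, 211, 194 and 225 CPM in control at day 5 (-0.15 ± 0.061, adjusted p = 0.0571; called in DESeq2, adjusted p = 0.0188, and in a fit with sex, adjusted p = 0.0281), and 202, 201 and 193 CPM in KO against 191, 194 and 191 CPM in control at day 3.

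Eif4h, a second helicase stimulator, was at 79.9% of control at day 5 (adjusted p = 0.00317) and 84.6% at day 3 (adjusted p = 0.0378). Eif4a3, the helicase of the exon junction complex, was at 85.1% at day 5 (adjusted p = 0.011) and 96.3% at day 3 (adjusted p = 0.965). Its near-identical relative Eif4a3l1, with 1.87 ± 0.123 CPM in KO and 2.56 ± 0.262 CPM in control at day 5, passed at neither day. The day 3 calls on Eif4g1 and Eif4h were lost without filtering (adjusted p = 0.0706 and 0.0789), in a fit with sex (0.162 and 0.193) and without any single day 3 library other than KO replicate 2 (0.0566 to 0.158), and with control replicates 1 and 2 summed (0.0619 and 0.0598). The day 5 call on Eif4a3 was lost with library totals as the scaling (adjusted p = 0.0756).

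Of the 3 genes of eIF5A and eIF6, 2 were called lower at both days, where 17.3% of all genes were. Eif5a encodes the hypusine-bearing factor that helps the ribosome through elongation and termination, and had the largest day 5 difference of all members. It had 284, 276, 285 and 281 CPM in KO against 672, 689, 617 and 490 CPM in control at day 5, and 328, 213 and 266 CPM in KO against 472, 502 and 474 CPM in control at day 3. KO libraries of day 5 lay close together and far below the lowest control. Eif5a was at 45.6% of control at day 5 (log2 fold change -1.13 ± 0.12, adjusted p = 4.21e-06) and 56% at day 3 (-0.84 ± 0.14, adjusted p = 2.14e-04). It overlaps Gps2 in the annotation.

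Eif6, which keeps the large subunit from joining too early, had 47.7, 45.8, 49 and 47.2 CPM in KO against 85.5, 79.1, 77.2 and 68.1 CPM in control at day 5, and 55.5, 47.9 and 46.1 CPM in KO against 71.2, 71 and 68.9 CPM in control at day 3. It was at 61.2% of control at day 5 (adjusted p = 3.99e-06) and 71.3% at day 3 (adjusted p = 4.58e-04), with no overlap. Eif5a2, the second eIF5A gene, had 29.9, 30.8, 28.9 and 31.9 CPM in KO against 22.9, 21.1, 24.3 and 33.3 CPM in control at day 5, and 25.6, 34.3 and 25.4 CPM in KO against 24.4, 16.9 and 24.5 CPM in control at day 3. Its level did not pass at either day (0.26 ± 0.15, adjusted p = 0.151; 0.33 ± 0.18, adjusted p = 0.137), and without control day 5 replicate 4 the day 5 value did (0.43, adjusted p = 0.00768). Per length, Eif5a2 over Eif5a was 0.0409 to 0.0459 in KO and 0.0124 to 0.0274 in control at day 5, and 0.0316 to 0.065 in KO and 0.0136 to 0.0209 in control at day 3. The ratio was 2.51 and 2.44 times as high in KO as in control, and Eif5a held nearly all of the sum of both genes in every group.

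The size of the KO effect differed between the days for 3 members. The difference of the log2 fold changes (day 5 minus day 3) was 0.91 ± 0.18 for Eif1 (adjusted p = 0.00427), 0.53 ± 0.17 for Eif1ad (adjusted p = 0.0484) and 0.43 ± 0.10 for Eif2s2 (adjusted p = 0.0134). Each was positive, so that KO was closer to control at day 5. These 3 were 6.82% of the tested members, near the 7.16% of all genes with a positive difference called. A negative difference was called for 7.15% of all genes and for 0 members. Of the members, DESeq2 called 2 positive and 0 negative, and at an unadjusted p below 0.05 edgeR had 1 negative. For Eif1 and Eif2s2 the control libraries were lower at day 5 than at day 3, while the KO libraries of both days overlapped. The call on Eif1ad was lost in most alternatives (adjusted p = 0.0526 to 0.102 where lost), while Eif3b, at -0.32 ± 0.15 (adjusted p = 0.156), passed in a fit with sex (-0.35, adjusted p = 0.0356) and without control day 5 replicate 4 (-0.41, adjusted p = 0.0267).

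Within each genotype, a part of the members was lower at day 5 than at day 3. In KO cells 9 (20.5%) were called lower and 0 higher, against 7.06% and 4.98% of all genes. DESeq2 called 10 lower and 0 higher, and at an unadjusted p below 0.05 edgeR had 2 higher. In control cells 14 (31.8%) were called lower and 7 (15.9%) higher, against 19.9% and 18.3% of all genes. The share called higher in control was thus near that of all genes. Most embryos gave libraries of both days, and with the embryo as a block 7 members were lower in KO, and 8 were lower and 7 higher in control, without Eif1ax and Eif2b4 among the higher ones. Scaled to library totals alone, the median of all genes in the KO comparison shifted by 0.1149 on the log2 scale, and 7 members were lower and 3 higher; of all calls, 72.8% were then higher, against 41.3% in the TMM fit, and of all calls on the difference of the KO effects 68.1%, against 50%.

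Eif1b, Eif3c, Eif3f, Eif3h, Eif3i, Eif3k, Eif4b and Eif5 were called lower at day 5 in both genotypes. In KO, the Eif1b call (adjusted p = 0.0451) was lost when any 1 KO library was left out (0.0629 to 0.118). The Eif5 call in KO had an adjusted p of 0.0369. It was lost without day 3 replicate 2 or 3, or day 5 replicate 2, 3 or 4 (0.0629 to 0.134). Library totals as the scaling lost both (0.191 and 0.179). With the embryo as a block, Eif1b (0.103) and Eif5 (0.0507) were lost in KO, and Eif3i (0.0848) and Eif3k (0.0677) in control. Eif4b was at 64% of its day 3 level in KO (log2 fold change -0.64 ± 0.063) and 61% in control (-0.71 ± 0.063), Eif3c at 64.1% in KO (-0.64 ± 0.092) and 60.3% in control (-0.73 ± 0.092), and Eif3f at 64.1% in KO (-0.64 ± 0.069) and 70.7% in control (-0.50 ± 0.069). Each had all day 5 libraries below all day 3 libraries of its genotype. The 7 genes higher at day 5 in control cells were Eif1ax, Eif2b1, Eif2b4, Eif3b, Eif4a3, Eif4g1 and Eif5a, with log2 fold changes of 0.24 (Eif1ax) to 0.39 (Eif2b4). Their changes in KO, -0.0036 (Eif3b) to 0.13 (Eif4a3), did not pass. Eif1ax, Eif2b4 and Eif5a were lost when replicates 1 and 2 of the day 3 control were summed. The count in control fell to 3 without replicate 2 or 3 of day 3 or replicate 3 of day 5, to 4 without replicate 1 of day 3 or replicate 2 of day 5, and was 10 without replicate 4 of day 5.

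**Figure D5:**
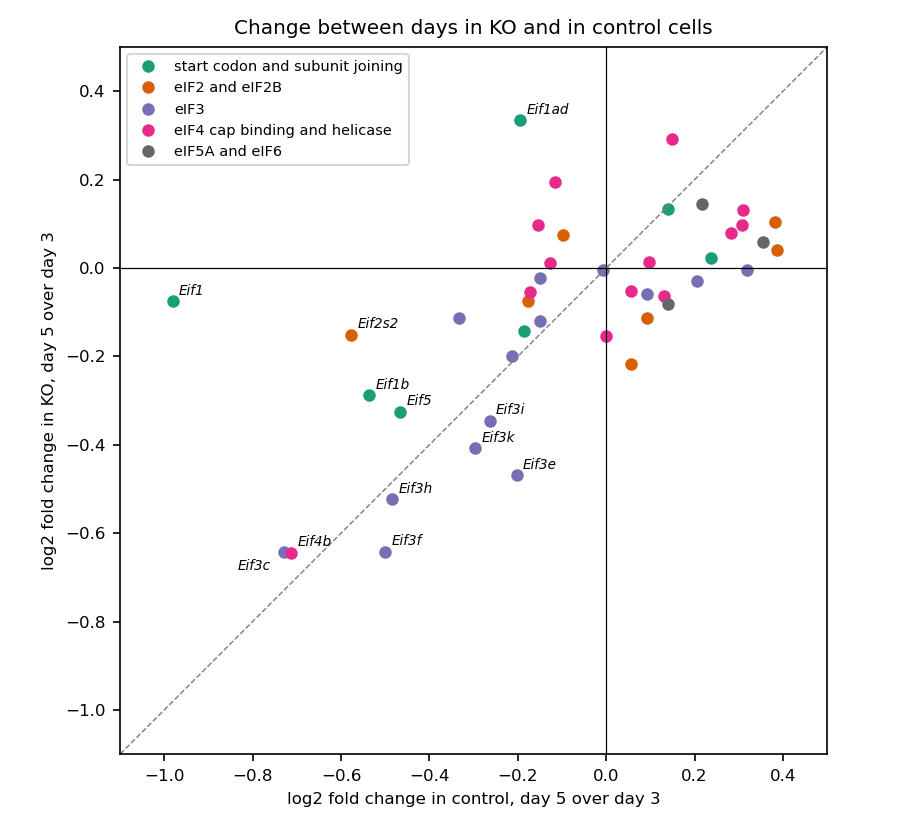
Log2 fold change of day 5 over day 3 in KO cells (vertical) and in control cells (horizontal) for the 44 tested members, coloured by role, with the line of equal change dashed. Named genes were called between days in KO or differed in KO effect between days; Eif1 lies at -0.08 in KO and -0.98 in control, and Eif4b and Eif3c lie near the line.

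Genes that regulate or assist initiation were called in both directions. Of 30 tested, 6 were called higher and 13 lower at day 5 and 9 higher and 12 lower at day 3, and the median log2 fold change was -0.08 at day 5 and 0.03 at day 3. At day 5 this was 20% higher and 43.3% lower, where all genes had 26.3% and 26.2%. At day 3 it was 30% higher and 40% lower, where all genes had 24.6% and 26.2%. The share called higher was near that of all genes. Ppp1r15a, which guides a phosphatase to eIF2 and so undoes the action of the stress kinases, had 23.1 ± 0.907 CPM in KO and 31.5 ± 3 CPM in control at day 5, and 38.8 ± 5.73 CPM in KO and 156 ± 14.3 CPM in control at day 3. It was at 24.4% of control at day 3 (log2 fold change -2.04 ± 0.11, adjusted p = 2.28e-08), and the difference of its KO effect between the days was 1.59 (adjusted p = 2.71e-05). Larp1, which binds mRNAs that begin with an oligopyrimidine tract, had 138 ± 2.12 CPM in KO and 237 ± 14.9 CPM in control at day 5 and 153 ± 19.2 CPM in KO and 276 ± 23.5 CPM in control at day 3.

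Both enzymes that make the hypusine of eIF5A were lower in KO beside Eif5a itself. Dhps had 17.3 ± 1.31 CPM in KO and 25.5 ± 3.15 CPM in control at day 5 (log2 fold change -0.55 ± 0.12) and 16.5 ± 4.01 CPM in KO and 35 ± 2.3 CPM in control at day 3 (49.9% of control). Dohh had 28.5 ± 0.543 CPM in KO and 40.9 ± 2.31 CPM in control at day 5 (-0.52 ± 0.076) and 31.3 ± 3 CPM in KO and 37.7 ± 3.67 CPM in control at day 3 (-0.29 ± 0.092). Paip1, a partner of the poly(A)-binding protein that promotes initiation, was lower at both days (-0.36 ± 0.057 and -0.42 ± 0.067), and Paip2b, a relative of the inhibitor Paip2, was higher (0.42 ± 0.06 and 0.52 ± 0.071).

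Mknk2, a kinase of eIF4E, was higher in KO, with 139 ± 5.71 CPM in KO and 81.6 ± 8.33 CPM in control at day 5 and 147 ± 6.45 CPM in KO and 61.9 ± 8.74 CPM in control at day 3 (log2 fold change 0.76 ± 0.087 and 1.25 ± 0.10). Mlst8, a subunit of both mTOR complexes, was higher with 38.4 ± 1.23 CPM in KO and 22.1 ± 1.45 CPM in control at day 5 (0.80 ± 0.073). Dhx29, a helicase for structured leaders, was higher at both days (0.23 ± 0.061 and 0.69 ± 0.074). Eif2d, which can deliver tRNA independently of GTP, was called lower at day 5 (-0.17 ± 0.061, adjusted p = 0.0303) and higher at day 3 (0.34 ± 0.073, adjusted p = 0.00166), and the difference passed its own test (-0.50, adjusted p = 0.00359). The KO effect also differed between the days for Dhx29 (-0.46, adjusted p = 0.00652) and Mlst8 (0.46, adjusted p = 0.0159). It differed as well for the S6 kinase gene Rps6kb1 (-0.36, adjusted p = 0.0223) and for Eif2a, which encodes an alternative tRNA-binding factor (0.32, adjusted p = 0.0407).

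Most elongation and termination factors were lower in KO. Of 13 tested, 10 were called lower and 2 higher at day 5 and 9 lower and 2 higher at day 3, with a median log2 fold change of -0.51 at day 5 and -0.35 at day 3. At day 5 this was 76.9% lower and 15.4% higher, beside 26.2% and 26.3% of all genes. At day 3 it was 69.2% lower and 15.4% higher, beside 26.2% and 24.6% of all genes. Eef1b2, Eef1d and Eef1g, of the exchange complex for eEF1A, were lower at both days. Eef1b2 had 310 ± 17.6 CPM in KO and 511 ± 16 CPM in control at day 5, and Eef1d 97.8 ± 7.45 CPM in KO and 150 ± 17.8 CPM in control. Eef1g had 87.2 ± 15.6 CPM in KO and 224 ± 42 CPM in control at day 3. Eef1e1, a part of the tRNA synthetase complex, had 18.9 ± 4.18 CPM in KO and 44.4 ± 5.7 CPM in control at day 3. Eef2k, the kinase that inhibits eEF2, had 45.6 ± 2.25 CPM in KO and 66.5 ± 4.21 CPM in control at day 5 (-0.54 ± 0.069). The 2 genes that were higher at both days were Eefsec, the elongation factor for selenocysteine (0.61 ± 0.099 at day 5 and 0.67 ± 0.12 at day 3), and Gspt2, the second gene of the termination factor eRF3 (0.91 ± 0.10 and 0.54 ± 0.12). Gspt1, the main eRF3 gene, was lower at day 5 (-0.49 ± 0.076) and did not pass at day 3 (-0.11 ± 0.089, adjusted p = 0.329), and the difference passed its own test (-0.38, adjusted p = 0.043).

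Between the days, Eef2 and Eef1a1, the main elongation factors, were lower at day 5 than at day 3 in both genotypes. Eef2 was at 61% of its day 3 level in KO and 58.9% in control, and Eef1a1 at 64.6% in KO and 66.5% in control. The poly(A)-binding protein genes Pabpc4 (65.3% in KO and 68.9% in control) and Pabpc1 (73.1% in KO and 71.7% in control) were lower as well, as were Eef2k (75.3% in KO and 87.3% in control) and Eef1b2 (72.9% in KO and 75.1% in control). Ppp1r15a was at 60.8% in KO and 20.1% in control, and Ppp1r15b, its constitutive relative, at 81.1% in KO and 69.4% in control. In KO, Mlst8 (130% of its day 3 level) and Rps6kb2, a relative of the S6 kinase gene Rps6kb1 (136%), were called higher at day 5. In control they stood at 94.1% and 122% and did not pass. Dhx29, Rps6kb1, Eif2d, Gspt1 and Pelo, a ribosome rescue factor, were called higher at day 5 in control, at 123% (Eif2d) to 160% (Dhx29). In KO they stood at 86.6% (Eif2d) to 116% (Dhx29) and did not pass. The difference between genotypes was not called for Rps6kb2 and Pelo.

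The sex of the libraries, 1 control and the cartilage genes moved with parts of these results. Within females at day 5, the KO library lay below all 3 control libraries for 40 of 44 members and above them for 4. At day 3 it lay below for 34 and above for 7. Of all genes, 40.5% and 39.6% lay below. Within males at day 5, the 3 KO libraries lay below the control library for 35 of 44 members and above it for 6, where 38.7% of all genes lay below. The 33 members called lower at day 5 and the 30 at day 3 were chosen from these same libraries. Their counts within females (33 and 30 below) and males (32 of 33) were therefore largely fixed by that choice. In a fit with sex, 32 members were called lower at day 5 and 26 at day 3. Control day 5 replicate 4, the male library and the only control with its litter label, was the lowest control for 23 of the 33. Without it 33 members were lower and 3 higher, and Eif3b and Eif2b1 were added to the members whose KO effect differed between days.

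Of 8 cartilage markers, 7 passed the filter and Matn1 stayed under 1 CPM in every library. Their summed level was 1843, 2515, 2943 and 3816 CPM in KO against 269, 186, 362 and 2609 CPM in control at day 5 (the last is replicate 4), and 2414, 2311 and 2711 CPM in KO against 144, 82.9 and 176 CPM in control at day 3. Control day 5 replicate 4 lay above 2 KO libraries of its day and all other controls below every KO library, and the part of this difference in the results on initiation factors was not tested. In any library, markers of endothelium summed to at most 20.8 CPM, of epithelium to 30.6 CPM, of skeletal muscle to 193 CPM (Myod1, Myog, Myf5 and Pax7 under 1 CPM throughout) and of neural and glial cells to 165 CPM. Of the blood markers, Hba-a1, Hbb-bs, Alas2, Tal1 and Klf1 were under 1 CPM throughout, and macrophage markers summed to 71.7 to 122 CPM in KO and 76.3 to 105 CPM in control at day 5 and 51.9 to 75.9 CPM in KO and 82 to 113 CPM in control at day 3. Without KO day 3 replicate 3, the shallowest library, 27 members were called lower at day 3.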

How the data were processed

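RNA was sequenced with a stranded mRNA kit as 80-base read pairs, per the labels' protocols. The authors deposited raw counts per gene and a gene length, made with featureCounts on mm10, per the submitters' processing notes; for the aligner, annotation, strand setting and versions, nothing was given in the sources used here. Identifiers were matched to symbols in a RefSeq table (25275 of 26270). Lines without an identifier (909 of 27179, 0.194% to 0.315% of counts) were left out, as were 112 Y-linked and X-inactivation genes from the tests. After edgeR's expression filter 14327 genes were tested with edgeR 4.0.16 (R 4.3.3): TMM scaling, 1 quasi-likelihood fit of all 14 libraries with 4 group means, p-values adjusted by Benjamini-Hochberg across every tested gene, and calls at 0.05. For genes of very low dispersion edgeR bounds p by a Poisson fit, so p and SE need not match. The SE is the absolute log2 fold change over the root of F. CPM uses TMM-scaled totals; TPM was computed from counts and the deposited length. DESeq2 1.42.0 was an alternative. The procedure was tested on simulated data.

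The members, the lists of regulators, elongation factors and markers, and the rule for named genes were chosen with earlier results of these data known. By that rule values per library are given for the 3 members of each role with the smallest adjusted p at each day and the 5 with the smallest adjusted p of the difference between days, and 3 genes per list, direction and contrast are named. Values per library of Eif2s3x, Eif3m, Eif4a2, Eif4e, Eif4g1 and Eif5 were added after their values were seen. Replicate numbers were not taken to pair genotypes. Libraries of both days from 1 embryo pair the day contrasts; the deviations of such pairs correlated at -0.0229 to 0.204. No 2 libraries agreed within counting noise (chi-square over its degrees of freedom, 3.19 to 76.6 among pairs, with 15.3 between the day 3 controls of 1 embryo). In all, 13 members overlap another annotated gene, and near-identical copies may share reads, so that their values are uncertain. One blood marker, and the sum of that list, are not reported here.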

Additional observations from a re-analysis of the deposited data

Results flagged for a closer look

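Among 90 sets of 4 libraries (a member or Kat5 in a day 5 group), 5 had a library standing apart from the other 3. By chance alone about 1 of 20 sets would be flagged, and the sets are not independent, since they share libraries. Eif2s3x had 23.8 CPM in KO day 5 replicate 2, the female library, with the other KO libraries at 12.6 to 14.3 CPM. Control day 5 replicate 4, the male library, was low for Eif2b1 (30.9 CPM, others 38.3 to 38.8 CPM), for Eif3a (698 CPM, others 767 to 776 CPM) and for Eif3g (81.7 CPM, others 91.8 to 93.7 CPM). Control day 5 replicate 1 was low for Eif3f (274 CPM, others 299 to 304 CPM).

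The KO effect differed between the days, by the test of the difference itself (day 5 minus day 3, log2 scale), for Eif1 (0.91), Eif1ad (0.53) and Eif2s2 (0.43). Their share of the members (6.82%) was near that of all genes with a positive difference called (7.16%).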

How the results depend on the processing

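The alternatives were DESeq2 size factors, library totals, no filter, sex as a covariate, the replicate number or the embryo as a block, the day 3 controls 1 and 2 summed, only the 2 groups compared, DESeq2, a fold threshold of 1.5 and each library left out. Over these, 704 values of Kat5 and of the members picked by the rule for named genes were recomputed. Those members were picked mostly for a small adjusted p, so the tally does not stand for all members. Calls lost by Eif4g1, Eif4h, Eif4e, Eif4a2, Eif4a3, Eif3f, Eif3h, Eif3j2 and Eif2b5 lie outside it and are given above. Those lost by Eif5 and Eif5b with the replicate block also lie outside it and are given below. Of the 704 values, 658 kept direction and call, and 34 kept direction and lost the call (25 of them at the fold threshold). A further 8 gained the call and 4 changed sign. The sign changes were Eif1ad at day 5 (0.0044 with library totals, 0.0499 with sex), Eif4g3 at day 3 (-0.0018 with sex) and Eif2b4 at day 3 (-0.2564 to 0.0128 leaving out single libraries); none of these was called. The cause was not tested. Members called lower in KO numbered 32 to 34 at day 5 and 25 to 31 at day 3 leaving out single libraries, and 4 and 6 at the fold threshold. Those called higher at day 5 numbered 1 with sex, 0 at the fold threshold and 1 to 3 leaving out single libraries. The difference of the KO effects gave 1 member lower with sex, 1 with the replicate block and 0 to 2 leaving out single libraries. Day 5 against day 3 in KO gave 3 members higher with library totals, 2 with sex and 0 to 1 leaving out single libraries. In control it gave 4 higher with the day 3 controls summed, 3 to 10 higher and 10 to 13 lower leaving out single libraries, and 8 lower with the embryo block.

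Of 6 same-numbered pairs of KO and control libraries, 3, all of day 5, had correlated deviations above 0.1 (0.155 to 0.428) and 3 had not (-0.166 to -0.021); no label says that the number marks a shared source, and it was not taken as a pairing. The replicate block gave 33 lower and 2 higher at day 5, and 23 lower and 1 higher (Eif5a2, 0.59, adjusted p = 0.00191 in edgeR) at day 3, where only numbers 2 and 3 are shared. There Eif2b3, Eif3b, Eif3f, Eif3j2, Eif4g1, Eif4h, Eif5 and Eif5b were not called (adjusted p = 0.0651 to 0.42) and Eif3m was (adjusted p = 0.0129). The shallowest library, KO day 3 replicate 3 with 2187168 counts, limits the precision of low genes such as Eif2b4 and Eif4a3l1 at day 3. Genotype and litter cannot be told apart, and sex differs between the groups.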
